A study of Drosophila melanogaster with 2 samples.

Results

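Translation factors and aminoacyl-tRNA synthetases were taken as all genes whose symbol in the deposited tables begins with eIF, Aats-, Ef1, EF2 or Ef2b, which gave 55 of 14210 genes. They comprised 29 initiation factor genes, 5 elongation factor genes and 21 synthetase genes. Of these, 50 were measured, meaning a mean of at least 1 FPKM over both libraries and an estimate marked OK in each. The other 5 were all eIF4E paralogs.

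RNA came from larval brains of Drosophila melanogaster late in the third instar, as 1 osa RNAi library and 1 wild type library. The osa RNAi flies expressed UAS-CD8::GFP together with the hairpin of VDRC line 7810 against osa, which encodes a subunit of the SWI/SNF chromatin remodelling complex, and the wild type flies (w1118 strain) expressed UAS-CD8::GFP alone. In both, worniu-Gal4 drove expression and ase-Gal80 limited it to type II neuroblast lineages, and cells with strong GFP were sorted. By their labels, the osa RNAi cells were type II neuroblasts, cells that had reverted to a neuroblast-like state and INPs (intermediate neural progenitors), and the wild type cells were type II neuroblasts with their INPs and ganglion mother cells, but no neurons. Flies laid for 24 h, and brains were dissected after 5 days at 25 °C. Knockdown rests on 1 RNAi line, no library was replicated, and no difference below was tested between genotypes.

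Protein synthesis starts when eIF2 brings the initiator tRNA to the small ribosomal subunit, on which eIF3 acts as a scaffold, and when the eIF4 factors recruit the capped mRNA. Elongation factors then deliver charged tRNAs and move the ribosome along, and the synthetases charge each tRNA with its amino acid, in the cytosol or in mitochondria. Neuroblasts are large dividing stem cells that regrow between divisions and depend on high protein synthesis.

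FPKM counts fragments relative to transcript length and to the mapped total of the library, so levels of different genes can be set side by side. The deposited lower and upper bounds of each FPKM, and the intervals given with folds, cover counting error only. The widths of the bounds implied 15707014 reads on genes in the osa RNAi library and 10114559 in the wild type library. The target osa was at 15.6 FPKM in osa RNAi (deposited bounds 15.0 to 16.2) and 31.3 FPKM in wild type (30.3 to 32.3), 2.01-fold lower (1.91 to 2.11). Summed FPKM of 10 neuroblast and INP markers was 773 in osa RNAi and 637 in wild type, with none listed at 0. Of these 10, pnt and grh were at least 2-fold higher in osa RNAi and D and ham at least 2-fold lower, and mira contributed most to the sum, at 302 FPKM in osa RNAi and 192 in wild type. The sum of 6 neuronal markers was 39.98 in osa RNAi and 80.0 in wild type, also with none at 0. Of these, nerfin-1, at 3.24 FPKM in osa RNAi and 24.3 in wild type, and Snap25 were at least 2-fold lower. elav contributed most to the sum, at 30.5 FPKM in osa RNAi and 41.3 in wild type. Syt1 alone went the other way, at 1.63 FPKM in osa RNAi and 0.578 in wild type. The glial sum over 5 genes was 2.04 FPKM in osa RNAi and 5.21 in wild type. Most of the wild type sum came from gcm and Gs2. gcm was at 1.05 FPKM in osa RNAi and 3.45 in wild type, at least 2-fold lower, and Gs2 at 0.286 in osa RNAi and 1.47 in wild type. The defining glial gene repo went the other way, at 0.709 in osa RNAi and listed at 0 in wild type. alrm was at 0 in both and moody at 0 in osa RNAi. Of 3 haemocyte markers the sum was 0.319 FPKM in osa RNAi and 4.36 in wild type, with 1 listed at 0 in each library; nearly all of it was He, listed at 0 in osa RNAi and at 4.29 FPKM in wild type from 20 implied reads, while srp was at 0.279 in osa RNAi and listed at 0 in wild type. The part of these shifts in the results below was not tested, and in sorted bulk cells a different mix of cells and a different level per cell cannot be told apart.

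Most of the translation genes stood slightly higher in osa RNAi, and few differed by much. Of the 50 measured genes, 31 had a higher FPKM in osa RNAi with deposited bounds that did not overlap, against 35.9% of all 7144 measured genes. Lower values with bounds apart were found for 9 of the 50, against 30.0% of all measured genes, and the bounds of 10 overlapped. Relative to FPKM, bounds narrow with more reads, and the 50 genes were more abundant. Their median was 71.4 FPKM in osa RNAi, against 16.7 over all measured genes. The part of abundance in these counts was not tested. Only 1 gene, the cysteinyl-tRNA synthetase gene Aats-cys, was also at least 2-fold higher on the log2(FPKM + 1) scale, a rule that 7.78% of all measured genes passed. None was at least 2-fold lower, a rule that 6.79% of all measured genes passed. The median difference in log2(FPKM + 1), osa RNAi minus wild type, was 0.17 over the 50 genes and 0.04 over all measured genes. None of the 55 genes was among the 15 genes of the authors' deposited table of differential expression.

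The translation genes spanned a wide range of levels, and the 3 most abundant, eIF-5A, Ef1alpha48D and Ef1beta, were 1.04-fold to 1.06-fold higher in osa RNAi. The 55 genes together made up 1.71% of all FPKM in osa RNAi and 1.60% in wild type. The top of the range was eIF-5A (FBgn0034967, 2R from 19945347 to 19947002), whose product helps ribosomes through difficult peptide bonds. By its deposited symbol this gene is counted with the initiation factors, though its current name, eEF5, is that of an elongation factor. It stood at 5433 FPKM in osa RNAi (5389 to 5477) and 5163 FPKM in wild type (5107 to 5218), a 1.05-fold higher level (1.04 to 1.07). Among all genes it ranked 46 in osa RNAi and 52 in wild type. The lowest measured gene was the mitochondrial synthetase gene Aats-ala-m in osa RNAi, at 4.78 FPKM, and Aats-met in wild type, at 2.66 FPKM. Among the 500 most abundant genes, 11 were translation genes in osa RNAi and 11 in wild type.

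**Figure D1:**
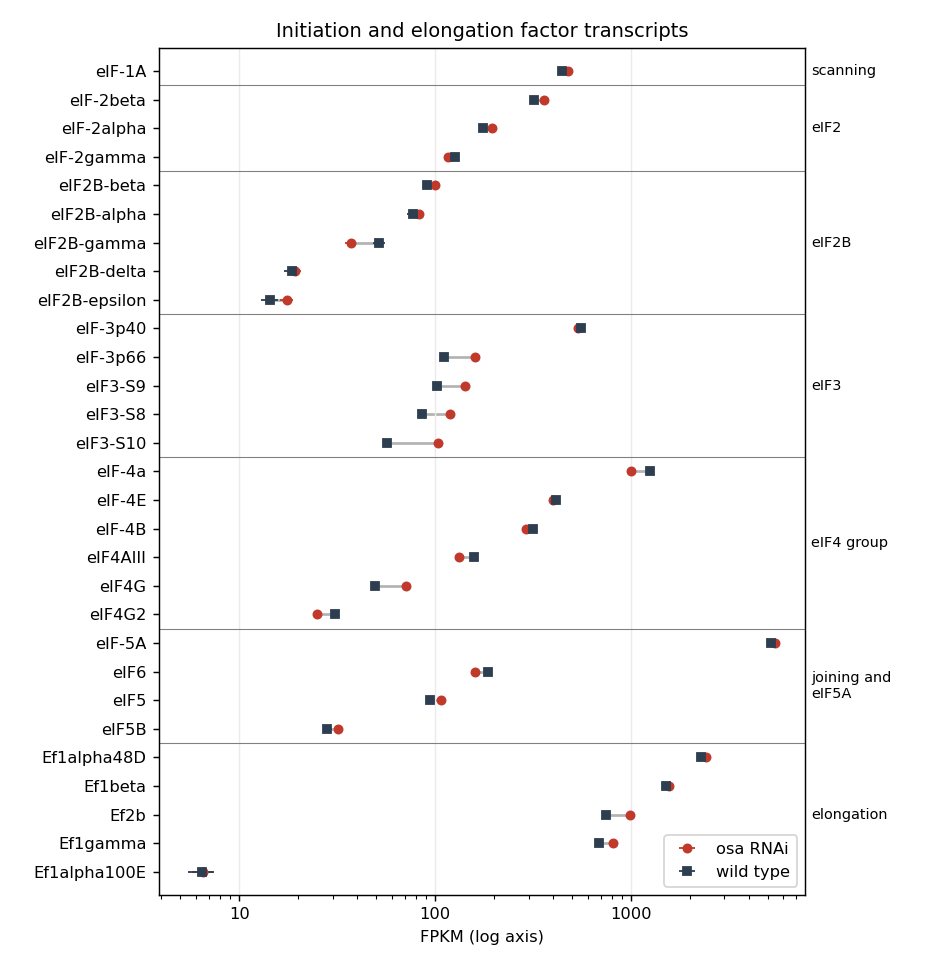
FPKM (log axis) of the 24 measured initiation factor genes and the 5 elongation factor genes in osa RNAi (red circles) and wild type (dark squares), grouped by role, with the deposited bounds as bars. Genes of eIF3 other than eIF-3p40 lie to the right in osa RNAi, whereas in the eIF4 group this holds for eIF4G and not for eIF-4a, eIF4AIII, eIF-4B or eIF4G2.

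Among initiation factors, the role with the highest median difference was the set of 5 eIF3 genes with eIF symbols; eIF3 is the large complex that organises the small subunit for initiation. Of these 5 genes, 4 were higher in osa RNAi with bounds apart and 1 had overlapping bounds, with a median difference of 0.47. Over all measured genes, 35.9% were higher and 30.0% lower with bounds apart, and the median was 0.04. Over all 14 measured eIF3 genes, including those with other symbols described below, the median was 0.16. The gene eIF3-S10 (FBgn0037249, 3R from 255639 to 259652), which encodes the largest subunit, eIF3a, was at 104 FPKM in osa RNAi (101 to 106) and 56.8 FPKM in wild type (54.5 to 59.1). That is a 1.83-fold higher level (1.74 to 1.91), the largest difference among the measured initiation factors. eIF-3p66, the gene of eIF3d, a subunit that in human cells can bind the cap, was at 160 FPKM in osa RNAi (156 to 164) and 111 FPKM in wild type (106 to 115), 1.45-fold higher (1.38 to 1.52). eIF3-S9, which encodes the core subunit eIF3b, stood at 142 FPKM in osa RNAi and 102 FPKM in wild type, 1.39-fold higher (1.33 to 1.45). eIF3-S8, the gene of the core subunit eIF3c, was at 119 FPKM in osa RNAi and 86.02 FPKM in wild type, 1.38-fold higher (1.32 to 1.44). These 4 genes spanned 104 to 160 FPKM in osa RNAi and 56.8 to 111 FPKM in wild type.

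In contrast, eIF-3p40, which encodes the peripheral subunit eIF3h, was several times more abundant than the other 4 in both libraries. It was at 537 FPKM in osa RNAi (527 to 548) and 553 FPKM in wild type (541 to 566), with overlapping bounds. Multiplying osa RNAi by 0.971, the factor that brings the median ratio to wild type to 1, or by 0.987, which matches the upper quartiles, set the bounds of eIF-3p40 apart, lower in osa RNAi. The level of eIF-3p40 was 5.18 times that of eIF3-S10 in osa RNAi and 9.74 times in wild type. The files hold 11 further eIF3 genes under other symbols, found by their current names after the data had been seen, of which 9 were measured. Among these 9, 7 were higher in osa RNAi with bounds apart and 1 was lower, with a median difference of 0.14. The shares were 77.8% higher and 11.1% lower, against 35.9% and 30.0% of all measured genes. Adam, the gene of the loosely bound subunit eIF3j, was at 184 FPKM in osa RNAi and 131 FPKM in wild type, 1.41-fold higher (1.33 to 1.48). The lower gene was CG8335, currently named eIF3f2, which was listed at 0 in osa RNAi and at 2.92 FPKM in wild type, where 32 implied reads stood behind it.

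Genes of the eIF4 group were mostly lower in osa RNAi. Apart from that of eIF4AIII, their products act in binding the cap, unwinding the leader or bridging the mRNA to the ribosome. Of 6 genes, 1 was higher in osa RNAi with bounds apart, 4 were lower and 1 had overlapping bounds, and the median difference was −0.18. The shares were 16.7% higher and 66.7% lower, against 35.9% and 30.0% of all measured genes, whose median was 0.04. The scaffold gene eIF4G (FBgn0023213, chromosome 4 from 935911 to 951347) was the higher one, at 70.8 FPKM in osa RNAi (69.0 to 72.7) and 49.0 FPKM in wild type (47.0 to 51.1). Its level was 1.45-fold higher (1.38 to 1.52). The helicase gene eIF-4a (FBgn0001942, 2L from 5981764 to 5985793) was at 996 FPKM in osa RNAi (984 to 1009) and 1244 FPKM in wild type (1227 to 1262), 1.25-fold lower (1.23 to 1.27). The cap-binding gene eIF-4E was at 399 FPKM in osa RNAi (391 to 408) and 413 FPKM in wild type (403 to 424), with bounds that came apart, lower in osa RNAi, under both of these rescalings. The ratio of eIF-4a to eIF4G levels was therefore 14.1 in osa RNAi and 25.4 in wild type, and that of eIF-4E to eIF4G was 5.64 in osa RNAi and 8.43 in wild type.

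The remaining genes of the group were lower in osa RNAi by small margins. eIF4AIII, whose product belongs to the exon junction complex and not to cap recognition, was at 132 FPKM in osa RNAi and 157 FPKM in wild type, 1.19-fold lower (1.14 to 1.26). eIF-4B, which encodes a helicase cofactor, was at 291 FPKM in osa RNAi and 315 FPKM in wild type, 1.08-fold lower (1.04 to 1.12). eIF4G2, known in flies for its role in the testis, was transcribed in both libraries, at 25.0 FPKM in osa RNAi (24.1 to 25.9) and 30.9 FPKM in wild type (29.7 to 32.1), 1.23-fold lower (1.17 to 1.302). Its locus lies within that of CG33111, which was at 10.1 FPKM in osa RNAi and 10.96 in wild type, so how reads were divided between them is uncertain. eIF4G was 2.83 times as abundant as eIF4G2 in osa RNAi and 1.59 times in wild type.

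The other genes with eIF4E symbols were listed at or near 0. The cap-binding gene 4EHP, currently named eIF4EHP, was not, at 22.0 FPKM in osa RNAi and 24.7 in wild type, with overlapping bounds. eIF4E-3, eIF4E-4, eIF4E-6 and eIF4E-7 were listed at 0 in both libraries. eIF4E-5 was at 0.789 FPKM in osa RNAi (0.351 to 1.23), from 13 implied reads, and listed at 0 in wild type. A listed 0 does not show that these genes were not transcribed. Some of these paralogs are known in flies for expression in the testis, and of 11 germline and testis markers 7 were listed at 0 in osa RNAi and 8 in wild type. The others of that list differed in both directions. vas was at 3.71 FPKM in osa RNAi and listed at 0 in wild type, and bam was at 5.20 in osa RNAi and 0.506 in wild type. bgcn was at 0.536 FPKM in osa RNAi and 2.19 in wild type, and can at 5.38 in osa RNAi and 5.52 in wild type.

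In eIF2 and its exchange factor eIF2B, 6 of the 8 genes stood above 0 in difference, while eIF2B-gamma was the lowest of the measured initiation factors. Of all 7144 measured genes, 3796 were above 0. Of the 3 eIF2 genes, 2 were higher in osa RNAi with bounds apart and 1 was lower. With bounds apart, 35.9% of all measured genes were higher and 30.0% were lower. eIF-2beta was at 359 FPKM in osa RNAi and 318 FPKM in wild type, 1.13-fold higher (1.09 to 1.17). eIF-2alpha, which encodes the subunit that stress kinases phosphorylate, was at 195 FPKM in osa RNAi and 175 FPKM in wild type, 1.11-fold higher (1.06 to 1.17). The GTP-binding subunit gene eIF-2gamma was at 117 FPKM in osa RNAi and 126 FPKM in wild type, 1.08-fold lower (1.03 to 1.14). It shares its locus with the histone methyltransferase gene Su(var)3-9, which was at 27.3 FPKM in osa RNAi and 21.2 FPKM in wild type, so the division of reads is uncertain there too.

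Among the 5 eIF2B genes, 1 was higher in osa RNAi with bounds apart, 1 was lower and 3 had overlapping bounds. eIF2B-gamma (FBgn0034029, 2R from 11430175 to 11431922) had a difference of −0.47. It was at 37.01 FPKM in osa RNAi (34.6 to 39.4) and 51.8 FPKM in wild type (48.3 to 55.3), 1.399-fold lower (1.28 to 1.53). The gene of the catalytic subunit, eIF2B-epsilon, was at 17.5 FPKM in osa RNAi (16.2 to 18.8) and 14.3 FPKM in wild type (12.9 to 15.8), 1.22-fold higher (1.08 to 1.38), but its bounds overlapped under median ratio scaling, which left none of the 5 higher. eIF2B-beta was at 100.2 FPKM in osa RNAi and 91.1 in wild type, and eIF2B-alpha at 82.8 FPKM in osa RNAi and 76.9 in wild type. eIF2B-delta was at 19.1 FPKM in osa RNAi and 18.6 in wild type, and its sign turned under median ratio scaling. Levels of the 5 genes thus spread over a wide range in both libraries, with eIF2B-beta 5.72 times as abundant as eIF2B-epsilon in osa RNAi and 6.35 times in wild type.

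Of the genes for subunit joining and scanning, eIF5, eIF5B and eIF-1A were slightly higher in osa RNAi and eIF6 was lower. The GTPase-activating factor gene eIF5 was at 107 FPKM in osa RNAi and 93.9 FPKM in wild type, 1.14-fold higher (1.08 to 1.20). eIF5B, the gene of the subunit joining GTPase, was at 31.9 FPKM in osa RNAi and 28.1 FPKM in wild type, 1.14-fold higher (1.06 to 1.21). The scanning factor gene eIF-1A was at 478 FPKM in osa RNAi and 446 FPKM in wild type, 1.07-fold higher (1.04 to 1.11), with overlapping bounds under median ratio scaling. eIF6, whose product keeps the large subunit from joining too early and acts in its assembly, was at 160 FPKM in osa RNAi and 187 FPKM in wild type, 1.17-fold lower (1.10 to 1.23). Its locus lies within that of ytr, which differed the other way, at 403 FPKM in osa RNAi and 154 FPKM in wild type. Over all 24 measured initiation factors, 12 were higher in osa RNAi with bounds apart, against 35.9% of all measured genes. Lower values with bounds apart were found for 7, or 29.2%, close to the 30.0% of all measured genes. The median difference was 0.10, against 0.04 over all measured genes. Under median ratio scaling 10 of the 24 were higher and 9 were lower. Of all 7144 measured genes, 2357 were higher and 2347 lower under that scaling.

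Of the 5 elongation factor genes, which leave out eIF-5A, 4 were higher in osa RNAi with bounds apart, and none was lower. Over all measured genes, 35.9% were higher and 30.0% lower with bounds apart. Under either rescaling the bounds of Ef1beta overlapped and 3 of the 5 were higher. Ef2b (FBgn0000559, 2L from 21678097 to 21682150), the gene of the translocase eEF2, differed most, at 990 FPKM in osa RNAi (981 to 999) and 750 FPKM in wild type (740 to 759). This is a 1.32-fold higher level (1.30005 to 1.34). Ef1alpha48D, the main gene for the factor that delivers charged tRNAs, was at 2415 FPKM in osa RNAi (2399 to 2431) and 2288 FPKM in wild type (2269 to 2307), 1.06-fold higher (1.05 to 1.07). Its exchange factor genes were Ef1gamma, at 807 FPKM in osa RNAi and 690 FPKM in wild type, 1.17-fold higher (1.15 to 1.19), and Ef1beta, at 1566 FPKM in osa RNAi and 1502 FPKM in wild type, 1.04-fold higher (1.02 to 1.06). Median ratio scaling left the difference of Ef1alpha48D at 0.04 and that of Ef1beta at 0.02. The second gene for the delivery factor, Ef1alpha100E, was at 6.54 FPKM in osa RNAi (5.75 to 7.32) and 6.46 FPKM in wild type (5.50 to 7.43), and its sign turned under both rescalings. Ef1alpha48D was 370 times as abundant as Ef1alpha100E in osa RNAi and 354 times in wild type, and how reads matching both of these similar genes were assigned is not given.

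**Figure D2:**
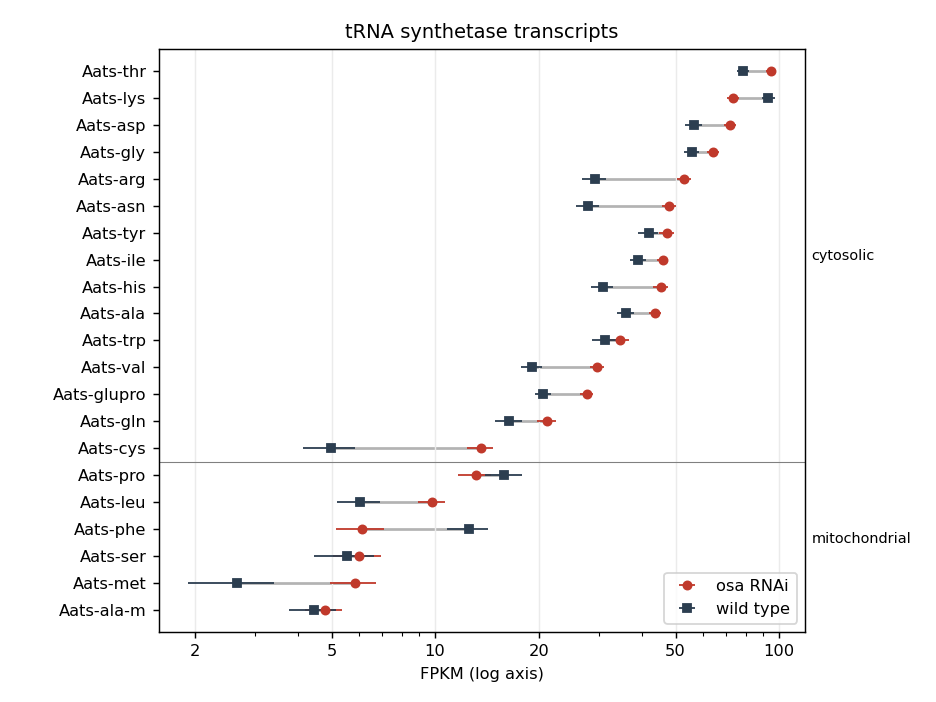
FPKM (log axis) of the 21 tRNA synthetase genes in osa RNAi (red circles) and wild type (dark squares), with the deposited bounds as bars; 15 are cytosolic and 6 mitochondrial by their current RefSeq symbols. Of the 15 cytosolic genes, Aats-lys alone lies to the left in osa RNAi.

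Cytosolic synthetase genes were higher in osa RNAi almost throughout. The ending -m in the files' symbols marks only Aats-ala-m as mitochondrial, but the current RefSeq symbols do so for 6 of the 21 genes and leave 15 as cytosolic. Of these 15, 13 were higher with bounds apart, 1 was lower and 1 had overlapping bounds, and the median difference was 0.34. Over all measured genes, 35.9% were higher and 30.0% lower with bounds apart, and the median was 0.04. The summed level of the 15 genes was 714 FPKM in osa RNAi and 581 FPKM in wild type, 1.23-fold higher. By the files' symbols alone, 20 genes count as cytosolic, with a median difference of 0.31.

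Aats-cys (FBgn0027091, 2R from 12030655 to 12033415), for cysteine, had the largest difference of all 55 genes, 1.28. It was at 13.6 FPKM in osa RNAi (12.4 to 14.7) and 4.998 FPKM in wild type (4.13 to 5.87), 2.71-fold higher (2.25 to 3.28), from 551 implied reads in osa RNAi and 133 in wild type. The end of its locus overlaps the starts of Ext2, listed at 0 in both libraries, and CG10731, which was at 3.42 FPKM in osa RNAi and 7.90 in wild type. Aats-arg, for arginine, was at 53.1 FPKM in osa RNAi (50.6 to 55.6) and 29.1 FPKM in wild type (26.7 to 31.5), 1.82-fold higher (1.66 to 1.999). Aats-asn, for asparagine, was at 48.0 FPKM in osa RNAi (45.7 to 50.3) and 27.8 FPKM in wild type (25.7 to 30.0), 1.72-fold higher (1.58 to 1.89). No genes overlap the last 2 loci.

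Smaller differences in the same direction followed. Aats-val, for valine, was at 29.5 FPKM in osa RNAi and 19.2 FPKM in wild type, 1.54-fold higher (1.42 to 1.68). Aats-his, for histidine, was at 45.4 FPKM in osa RNAi and 30.7 FPKM in wild type, 1.48-fold higher (1.36 to 1.61). Aats-glupro, which encodes a fused enzyme for glutamate and proline, was at 27.6 FPKM in osa RNAi and 20.6 FPKM in wild type, 1.34-fold higher (1.25 to 1.43). The genes for glutamine, aspartate, alanine, threonine, isoleucine, glycine and tyrosine were 1.13-fold to 1.29-fold higher, each with bounds apart. Under either rescaling the bounds of Aats-tyr overlapped, which left 12 of the 15 cytosolic genes higher. Of all 7144 measured genes, 2357 were higher under median ratio scaling and 2468 under upper quartile scaling. Aats-thr was the most abundant synthetase gene in osa RNAi, at 94.7 FPKM in osa RNAi and 78.7 FPKM in wild type. Aats-asp was at 72.0 FPKM in osa RNAi and 56.6 FPKM in wild type. Aats-trp, for tryptophan, had overlapping bounds, at 34.4 FPKM in osa RNAi (32.3 to 36.6) and 31.1 FPKM in wild type (28.6 to 33.7).

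Aats-lys (FBgn0027084, X from 9500396 to 9502917), for lysine, was the exception. It was at 73.5 FPKM in osa RNAi (70.5 to 76.5) and 93.04 FPKM in wild type (88.9 to 97.2), 1.27-fold lower (1.19 to 1.34). In wild type it was the most abundant of the 21 synthetase genes, and in osa RNAi it came after Aats-thr. The files hold 5 more cytosolic synthetase genes under other symbols, found afterwards by their current names, of which 3 were higher with bounds apart and none was lower. Their median difference was 0.43. With bounds apart, 35.9% of all measured genes were higher and 30.0% were lower. The serine gene CG17259, for example, was at 84.8 FPKM in osa RNAi and 62.7 FPKM in wild type.

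Mitochondrial synthetase genes were scarcer and differed in direction. Of the 6, 2 were higher in osa RNAi with bounds apart, 1 was lower and 3 had overlapping bounds, and the median difference was 0.09. The shares were 33.3% higher and 16.7% lower, against 35.9% and 30.0% of all measured genes, whose median was 0.04. Aats-met, for methionine, was at 5.86 FPKM in osa RNAi (4.96 to 6.75) and 2.66 FPKM in wild type (1.92 to 3.39), 2.21-fold higher (1.62 to 3.01), from 172 implied reads in osa RNAi and 52 in wild type. Aats-leu, for leucine, was at 9.80 FPKM in osa RNAi (8.91 to 10.7) and 6.06 FPKM in wild type (5.20 to 6.92), 1.62-fold higher (1.37 to 1.91). Aats-phe (FBgn0020766, 2R from 9855852 to 9857407), for phenylalanine, was at 6.13 FPKM in osa RNAi (5.14 to 7.12) and 12.5 FPKM in wild type (10.8 to 14.3), 2.05-fold lower (1.66 to 2.52). Its difference of −0.93 was the lowest of all 55 genes, and neither it nor Aats-met reached 2-fold on the log2(FPKM + 1) scale.

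The other mitochondrial genes had overlapping bounds. Aats-pro, for proline, was at 13.1 FPKM in osa RNAi (11.7 to 14.6) and 15.9 FPKM in wild type (14.0 to 17.8). Aats-ser, for serine, was at 6.01 FPKM in osa RNAi and 5.54 FPKM in wild type, within the locus of CG6218. Aats-ala-m, the alanine enzyme of mitochondria, was at 4.78 FPKM in osa RNAi (4.19 to 5.36) and 4.46 FPKM in wild type (3.75 to 5.16). Its cytosolic counterpart Aats-ala was at 43.6 FPKM in osa RNAi (41.8 to 45.4) and 35.9 FPKM in wild type (33.9 to 37.9), 1.22-fold higher (1.13 to 1.301). The cytosolic alanine gene was thus 9.13 times as abundant as the mitochondrial one in osa RNAi and 8.05 times in wild type.

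A further 9 mitochondrial synthetase genes stood in the files under other symbols, again found afterwards by current names. Of these, 4 were higher in osa RNAi with bounds apart, 2 were lower and 3 had overlapping bounds, with a median difference of 0.24. The shares were 44.4% higher and 22.2% lower, against 35.9% and 30.0% of all measured genes. The tyrosine gene CG16912 was at 13.02 FPKM in osa RNAi and 5.46 FPKM in wild type, 2.38-fold higher (1.90 to 2.99), and the aspartate gene CG31739 was at 32.6 FPKM in osa RNAi and 17.4 FPKM in wild type, 1.87-fold higher (1.72 to 2.04). The mitochondrial cysteine gene CG8257 was opposite to Aats-cys, at 4.85 FPKM in osa RNAi and 10.7 FPKM in wild type, 2.21-fold lower (1.77 to 2.77). The phenylalanine enzyme of the cytosol has paired subunit genes: CG2263 was at 40.9 FPKM in osa RNAi and 41.8 in wild type, and CG5706 at 36.3 FPKM in osa RNAi and 26.3 in wild type.

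**Figure D3:**
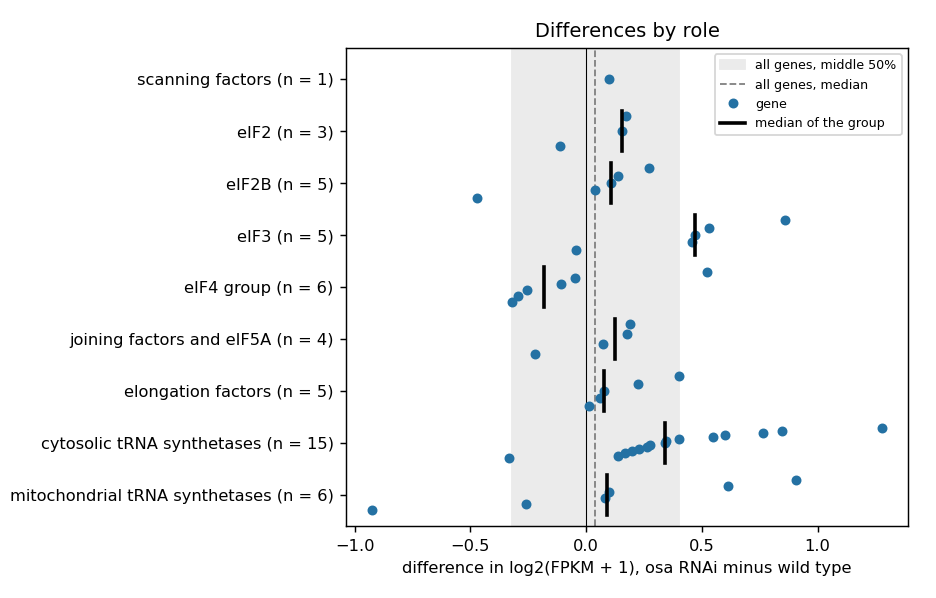
Differences in log2(FPKM + 1), osa RNAi minus wild type, of the 50 measured genes by role (blue points), with the median of each role of 3 or more genes (black bars). The grey band holds the middle 50% of all 7144 measured genes, from −0.32 to 0.40; the median of 0.47 of the 5 eIF3 genes with eIF symbols lies above it, and the medians of the other roles lie within it.

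Genes that work with these factors were examined in a list of 26 symbols, of which 23 were in the files and all 23 were measured; 3 of them (Adam, Int6 and Trip1) are eIF3 genes counted above. Here 17 were higher in osa RNAi with bounds apart, 3 were lower and 3 had overlapping bounds, with a median difference of 0.26. By comparison, 35.9% of all measured genes were higher and 30.0% lower with bounds apart, with a median difference of 0.04. These 23 genes were also more abundant, with a median of 60.6 FPKM in osa RNAi, against 16.7 over all measured genes. The part of abundance in their counts was not tested. The kinase gene Gcn2, whose product senses uncharged tRNA and phosphorylates eIF2, was at 7.24 FPKM in osa RNAi and 2.87 FPKM in wild type, 2.53-fold higher (2.14 to 2.98). ico, the gene of a mitochondrial elongation factor, was at 10.4 FPKM in osa RNAi and 4.16 FPKM in wild type, 2.50-fold higher (2.06 to 3.03). The poly(A)-binding protein gene pAbp was at 828 FPKM in osa RNAi and 663 FPKM in wild type. On the lower side were EfSec, for selenocysteine insertion, at 2.55 FPKM in osa RNAi and 6.39 in wild type, and Paip2, a brake on pAbp, at 9.87 FPKM in osa RNAi and 15.9 in wild type. Thor, which encodes the inhibitor of eIF-4E, was also lower, at 70.9 FPKM in osa RNAi and 91.8 FPKM in wild type, 1.296-fold lower (1.17 to 1.43).

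Longer transcripts were more often higher in osa RNAi among the translation genes. Lengths were those of the longest transcript in the BDGP6 annotation and were found for all 55 genes. They can differ from the gene models behind the FPKM. Aats-ser, counted below as over 2000 bp by its length of 2552 bp, spans only 11166407 to 11167939 on 3R in the files. Of 48 translation genes averaging 5 FPKM or more, 26 of 30 with a transcript over 2000 bp were above 0 in difference, with a median of 0.31. Among the 18 with shorter transcripts, 10 were above 0, with a median of 0.07. Over all 5674 genes at that level, 56.8% of those over 2000 bp were above 0 (median 0.08), and 51.5% of the shorter ones (median 0.02). The Spearman correlation of length and difference was 0.55 over the 48 genes and 0.05 over all genes. Within classes it was lower, at 0.37 over 24 initiation factors and 0.41 over 19 synthetases. The Pearson correlation with log2 length was 0.35 over the 48 genes and 0.01 over all genes. The genes of a library share its depth and are not independent replicates. In synthetases, 14 of 15 with transcripts over 2000 bp and 2 of 4 with shorter ones were above 0. Among initiation factors the counts were 9 of 12 over 2000 bp and 6 of 12 below, and eIF3-S10 and eIF4G are among the long ones, whereas eIF4G2, the longest, eIF-4a, eIF-2gamma and Aats-lys, all over 2000 bp, were lower in osa RNAi. The part of transcript length in these differences was not tested.

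**Figure D4:**
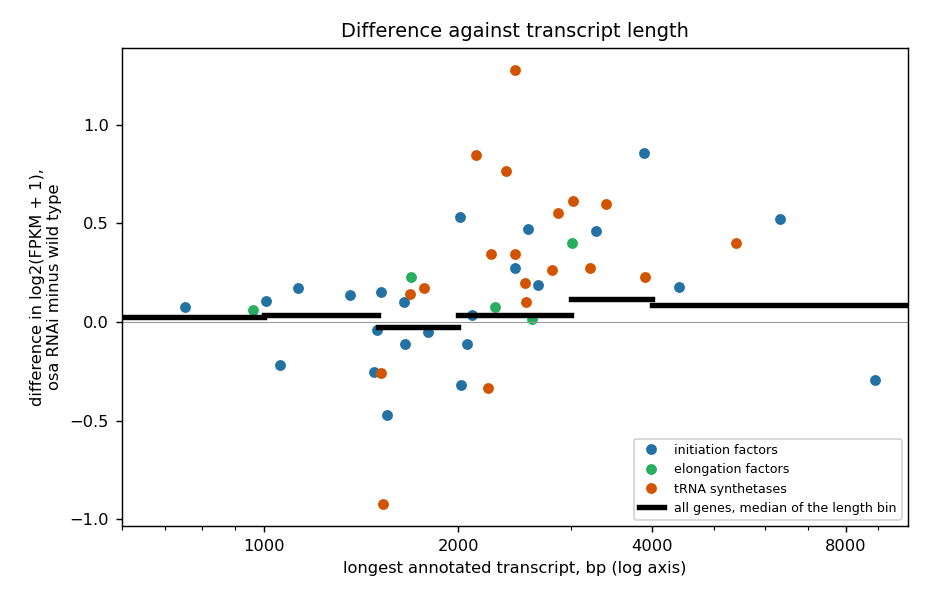
Difference in log2(FPKM + 1), osa RNAi minus wild type, against the longest annotated transcript in bp (log axis) for the 48 translation genes averaging 5 FPKM or more, coloured by class, with the median of all genes in each length bin (black bars). The medians of all genes lie between −0.02 and 0.11, while most translation genes over 2000 bp lie above 0.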

How the data were processed

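Per the file headers, the tables deposited by the authors give each gene an FPKM with 2 bounds and a status, 1 table per library. Cufflinks 1.3.0, TopHat 1.4.1, BWA 0.6.1, DESeq 1.8.3 and HTSeq are named in the submitters' processing notes, without roles. The sources used here do not state the genome build or the use of strand in counting; coordinates are those of the files, counted from 1. A further table, deposited by the authors, lists 15 genes with adjusted p-values from DESeq; it was read only for membership.

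Each bound was 2 × FPKM/√n from the FPKM. Solved for n, this gave whole numbers (within 0.02) in 93.4% of 1018 osa RNAi genes and 92.8% of 846 wild type genes with 1 transcript and under 50 reads, so n served as the implied reads. It is less certain for genes with several transcripts. Folds are ratios of FPKM with 95% intervals from implied reads; reads without molecular identifiers are not independent molecules. Differences are in log2(FPKM + 1), which understates low genes. With 1 library per group no test was run. The 2-fold rule required a difference of at least 1 in size, a mean of at least 1 FPKM, status OK and bounds apart. It was checked on simulated counting noise only. This leaves out spread between libraries, so the check cannot show how often the rule errs between genotypes. The count with bounds apart and no fold was added after the data were seen. The comparison by transcript length was not among the results planned beforehand.

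The members, lists and named genes were chosen with earlier results of these data known. Every gene past the 2-fold rule, the 8 highest and 8 lowest differences at a mean FPKM of 5 or more, the most abundant genes of each class, and the elongation factors and eIF4 genes were named; others were named after their values were seen. Current RefSeq or BDGP6 symbols were found for all 55 genes, and BDGP6 transcript lengths for 51 by gene ID and the others by current symbol. They served to classify synthetases, to find further genes of the same families and to give lengths. No sequence was searched or printed. Python 3.11.15, pandas 2.3.3, numpy 2.4.6, scipy 1.17.1 and matplotlib 3.10.9 were used.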

Additional observations from a re-analysis of the deposited data

How the results depend on the processing

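The count of 1 gene at least 2-fold higher became 2 with a pseudocount of 0.1 (Aats-met added), 0 with a pseudocount of 5, 7 at a 1.5-fold threshold, 0 at 3-fold, 0 without genes whose loci overlap another (which removes Aats-cys itself), and 31 with bounds apart and no fold threshold. The count of 0 lower genes became 1 (Aats-phe) with a pseudocount of 0.1 or a 1.5-fold threshold, and 9 with bounds apart and no fold threshold. Under median ratio scaling, which multiplies osa RNAi by 0.971, 27 genes were higher and 11 lower with bounds apart. Under upper quartile scaling the counts were 29 and 11. Of all measured genes, 2357 were higher and 2347 lower under median ratio scaling, and 2468 and 2232 under upper quartile scaling. As deposited, 2567 were higher and 2141 lower. The initiation factor median of 0.10 became 0.18 over the 12 genes without overlapping loci, and the elongation factor median of 0.08 became 0.04 under median ratio scaling. Other class medians moved by less than the counting interval of their genes, and no class median changed sign in the alternatives run. The median of all measured genes was 0.04 as deposited, −0.0029 under median ratio scaling and 0.02 under upper quartile scaling. The size of these shifts is set by the factors. The mitochondrial synthetase median could not be computed without overlapping loci or at a mean of at least 5 FPKM, since its 1 gene by the files' symbols, Aats-ala-m, is then left out. No paired analysis was possible because each genotype has 1 library and the labels number none. Depth limits the scarce genes most, down to 52 implied reads for Aats-met in wild type, and with 1 library per genotype the spread between replicates is unknown.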
